A study of Mus musculus with 20 samples.

Results

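The Schlafen genes encode a mouse family of growth-regulating and interferon-inducible proteins, and 8 of them were followed in whole-lung RNA: Slfn1, Slfn2, Slfn3, Slfn4, Slfn5, Slfn8, Slfn9 and Slfn14. They were taken by symbol from a table of 24054 genes, and all 8 passed the filter on low counts that left 16193 genes for testing. The family was chosen by the measured levels of Slfn8 and Slfn14, which lie on the chromosome of Alox15 and differ between the genotype labels. Differences between genotype labels are therefore given below as descriptions with no test, while the responses to house dust mite (HDM) are tested.

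The samples were lungs of female C57Bl6 mice in 4 groups of 5 libraries, which the titles name as biological replicates. Mice labelled ALOX15 KO received intranasal HDM extract each day for 14 days (knockout-labelled HDM lungs) or saline (knockout-labelled saline lungs), and wild-type mice received HDM (wild-type HDM lungs) or saline (wild-type saline lungs). The titles write PBS for the groups that the treatment labels call saline. The age of the mice, the construction of the knockout allele, its backcross and whether litters were shared are not given in the sources used here, so genotype and line of origin cannot be told apart. ALOX15 is a lipoxygenase, an enzyme that adds oxygen to polyunsaturated fatty acids.

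The gene named by the genotype label did not run in the direction of the label. Alox15 averaged 41.1 CPM (counts of a gene scaled for library size) in knockout-labelled HDM lungs and 40.8 CPM in knockout-labelled saline lungs, against 18.6 CPM in wild-type HDM lungs and 4.58 CPM in wild-type saline lungs. The 10 knockout-labelled libraries held 35.0 to 45.5 CPM and the 10 wild-type libraries 0.825 to 29.8 CPM. A gene-level count does not show which exons the reads cover, and the groups are named here by their labels only. The libraries held 12573094 to 23305645 counts, and the scaled library sizes used for CPM ran from 12868986 to 23001750. On that scale 3 counts were 0.2331 CPM in replicate 3 of the wild-type HDM lungs. They were 0.1304 CPM in replicate 4 of the knockout-labelled saline lungs. The 10 lung markers (epithelial and endothelial genes such as Sftpc and Pecam1) were detected in every group, with summed levels of 13670 to 22400, 34960 to 48780, 13590 to 29500 and 26960 to 39670 CPM in knockout-labelled HDM, knockout-labelled saline, wild-type HDM and wild-type saline lungs. Liver genes stood apart in the knockout-labelled HDM lungs, with a summed level of 35.8 to 113 CPM for 7 markers, against at most 7.30 CPM in any other library, and their part in the results below was not tested. The ribosomal repeat Rn45s held 18320 to 28600 CPM in knockout-labelled HDM lungs and 12570 to 22860 CPM in knockout-labelled saline lungs, against 27840 to 60790 CPM in wild-type HDM lungs and 14480 to 34070 CPM in wild-type saline lungs. With Rn45s removed the numbers of members called were the same in every tested comparison.

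Schlafen proteins share an amino-terminal core that is related to nucleic acid-cleaving enzymes, and the mouse family is sorted by length into a short, an intermediate and a long group, the last of which also carries a helicase-like carboxy-terminal part. Many members are induced by interferon through Jak kinases and Stat and Irf transcription factors, and several are known from the resting state and the activation of lymphocytes and from myeloid cells. Slfn14 is known as a ribosome-associated endoribonuclease of immature red cells and, in humans, from inherited platelet disorders.

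All 8 genes lie in a cluster on chromosome 11 (mouse build GRCm38.p6, RefSeq), and RefSeq promoter windows were found for 8 of 8. Each window ran from 250 bases before to 50 bases after the start of transcription, and Slfn8 had more than 1 listed start. Motifs were searched on both strands. They were a form of the interferon-stimulated response element (GAAA, 2 bases of any kind, GAAA), the site bound by Stat proteins after interferon gamma (TTCNNNGAA) and the site of GATA factors (GATAAG). The matches reported do not overlap one another. The 250 bases before the start are shown for 4 members: Slfn8 and Slfn9, whose windows are alike in sequence while the genes differ in their pattern across the groups; Slfn5, which holds the same interferon motif; and Slfn14, which with Slfn8 led to the choice of the family. They read 5′ to 3′ on the strand of the gene, in lower case, with motif matches in capitals. The positions are chr11:83020811-83021060 (minus strand) for Slfn8, chr11:82991831-82992080 (minus strand) for Slfn9, chr11:82951852-82952101 (plus strand) for Slfn5 and chr11:83286727-83286976 (minus strand) for Slfn14.
Slfn8: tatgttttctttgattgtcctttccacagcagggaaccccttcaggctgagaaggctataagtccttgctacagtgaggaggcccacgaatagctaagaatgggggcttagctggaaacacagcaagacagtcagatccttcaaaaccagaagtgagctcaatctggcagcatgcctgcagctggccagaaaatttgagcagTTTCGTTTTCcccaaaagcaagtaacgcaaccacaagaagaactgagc
Slfn9: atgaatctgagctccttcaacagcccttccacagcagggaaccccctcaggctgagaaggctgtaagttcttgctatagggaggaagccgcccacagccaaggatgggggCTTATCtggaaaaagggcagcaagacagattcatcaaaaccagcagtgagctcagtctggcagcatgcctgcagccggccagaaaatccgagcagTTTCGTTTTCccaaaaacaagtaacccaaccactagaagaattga
Slfn5: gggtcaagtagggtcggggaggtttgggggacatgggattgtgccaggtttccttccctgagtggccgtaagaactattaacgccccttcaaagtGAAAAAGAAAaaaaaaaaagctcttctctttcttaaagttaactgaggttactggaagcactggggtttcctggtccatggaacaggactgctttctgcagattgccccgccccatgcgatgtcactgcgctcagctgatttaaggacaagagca
Slfn14: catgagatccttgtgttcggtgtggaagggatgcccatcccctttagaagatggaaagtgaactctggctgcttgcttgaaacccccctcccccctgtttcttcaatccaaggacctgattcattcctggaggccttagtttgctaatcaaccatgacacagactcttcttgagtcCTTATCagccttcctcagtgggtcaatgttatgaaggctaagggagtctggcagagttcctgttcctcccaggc

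The interferon-stimulated element was in 3 of the 8 members' windows, those of Slfn5, Slfn8 and Slfn9, against 3.44% of 32851 mouse promoter windows of the same length. In Slfn8 it spans bases -48 to -39 and in Slfn9 bases -45 to -36 before the start, with the letters TTTCGTTTTC in both, and in Slfn5 it spans bases -155 to -146. The Slfn8 and Slfn9 windows of 300 bases were identical at 87.5% of 288 aligned bases. The GATA motif was in the windows of Slfn14, at bases -74 to -69, and of Slfn9, at bases -140 to -135, against 7.44% of all windows. The gamma-type motif was in none of the 8 windows, against 8.3% of all windows. These are matches of letters, not measured binding.

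Levels were compared between genes only per length, as CPM per kilobase of the longest annotated transcript. On that scale Slfn2 and Slfn5 stood highest in every group. Slfn2 averaged 57.4, 27.1, 47.8 and 33.03 CPM per kilobase in knockout-labelled HDM, knockout-labelled saline, wild-type HDM and wild-type saline lungs, and Slfn5 averaged 42.8, 48.8, 43.9 and 48.0 in those groups. The other members ranged from 0.067 (Slfn14 in wild-type HDM lungs) to 8.66 CPM per kilobase (Slfn1 in knockout-labelled HDM lungs). In whole-lung RNA a lower level can come from fewer cells of a type or from less RNA per cell, and these cannot be told apart.

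**Figure D1:**
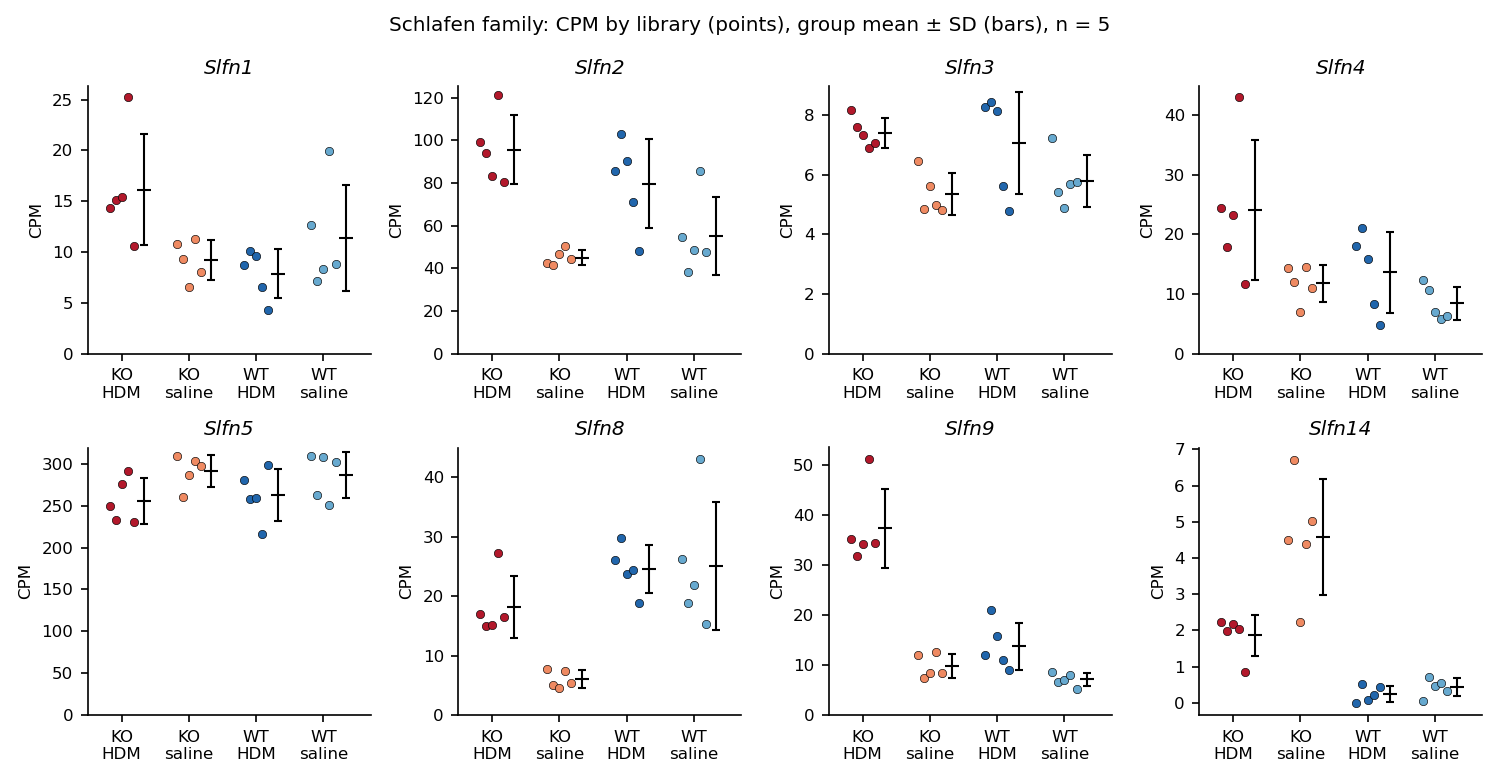
CPM of the 8 Schlafen genes in each of the 20 libraries, 1 panel a gene, with groups on the horizontal axis (points are libraries, bars the mean and SD of 5). Slfn8 is lowest in the knockout-labelled saline lungs (4.62 to 7.80 CPM) and Slfn14 is above 0.86 CPM in all 10 knockout-labelled libraries and below 0.73 CPM in all 10 wild-type libraries.

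The response to HDM was read first. In knockout-labelled lungs 6 of 8 members rose with HDM and 1, Slfn14, fell (edgeR quasi-likelihood test, adjusted p under 0.05 over all genes). Those that rose were Slfn1, Slfn2, Slfn3, Slfn4, Slfn8 and Slfn9. In wild-type lungs Slfn2 and Slfn9 rose. The background was high: of all genes tested, 51.9% were called in knockout-labelled lungs (26.2% higher and 25.7% lower), and 30.1% in wild-type lungs (13.6% higher and 16.5% lower). The balance in wild-type lungs turned with the setting: 45.2% of the calls were higher, against 54.8% without the low-count filter and 54.1% without Rn45s. The median log2 fold change of the 8 members was 0.92 in knockout-labelled lungs, where that of all genes was 0.016, and 0.13 in wild-type lungs, where that of all genes was -0.020. The test of the difference between the 2 HDM responses called 1 of 8 members, Slfn8, against 1.24% of all genes. For Slfn8 that difference is built from the genotype differences that chose it, and the knockout-labelled saline libraries serve both, so its call is no test of the gene and is read no further. The response of Slfn8 and Slfn14 to HDM in knockout-labelled lungs shares those libraries too, so their calls there are no independent test. The counts of members rising and falling and the median of 0.92 include them. Slfn1, Slfn2, Slfn3, Slfn4 and Slfn9, which also rose there, did not choose the family.

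**Figure D2:**
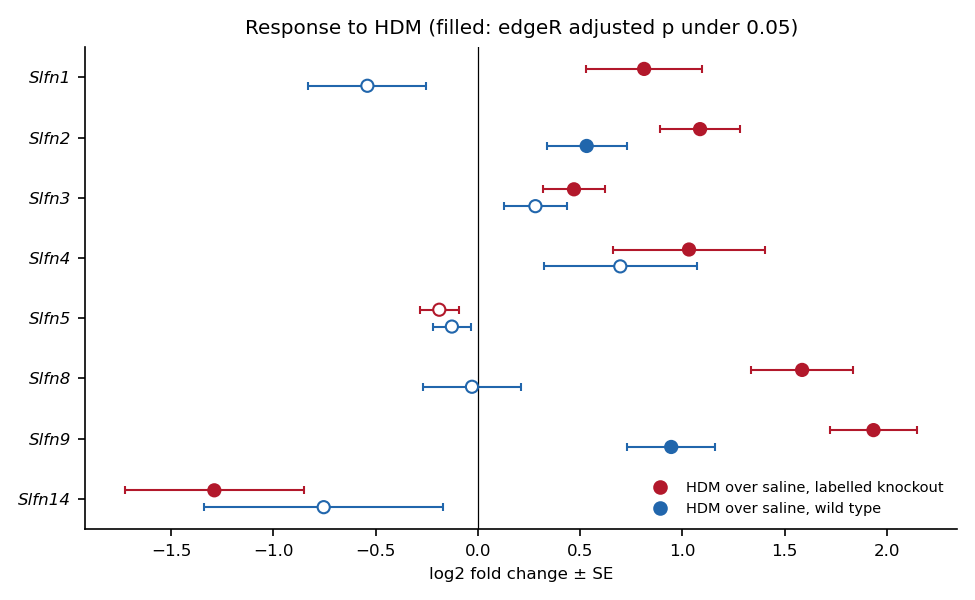
Log2 fold change of each Schlafen gene, HDM against saline, in knockout-labelled and wild-type lungs, with standard errors from the edgeR fit (5 libraries a group). Slfn9 lies above 0 in both (1.93 and 0.94), and Slfn8 is at 1.58 in knockout-labelled and -0.03 in wild-type lungs.

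Slfn1 and Slfn2 are the short members. Slfn1 is known for restraining the growth of thymocytes when expressed at high level, and Slfn2 for keeping resting T cells quiescent. Slfn2 measured 99.2, 93.98, 83.2, 121 and 80.4 CPM in knockout-labelled HDM lungs, against 42.3, 41.4, 46.6, 50.3 and 44.5 CPM in knockout-labelled saline lungs. In wild-type HDM lungs it measured 85.4, 103, 90.2, 71.1 and 48.2 CPM, against 54.6, 38.1, 48.7, 85.8 and 47.6 CPM in wild-type saline lungs. The knockout-labelled groups did not overlap, which held for 43.9% of all genes (22.1% higher and 21.8% lower), while the wild-type groups overlapped through 1 high saline library (replicate 4) and 1 low HDM library (replicate 5). Slfn2 rose by a log2 fold change of 1.09 ± 0.20 (SE; adjusted p = 0.000147, edgeR) in knockout-labelled lungs, where the exact two-sided permutation test gave p = 0.00794, the smallest that the design of 5 against 5 allows. In wild-type lungs the change was 0.53 ± 0.20 (adjusted p = 0.0461, edgeR), and the exact permutation test gave p = 0.0952. That wild-type call was lost in 10 of the 20 fits that left out 1 library, with an edgeR adjusted p of up to 0.109. The difference between the responses was 0.55 (adjusted p = 0.332, edgeR).

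Slfn1 measured 14.3, 15.2, 15.4, 25.3 and 10.6 CPM in knockout-labelled HDM lungs, against 10.8, 9.35, 6.51, 11.3 and 8.07 CPM in knockout-labelled saline lungs. With HDM in wild-type lungs it measured 8.71, 10.1, 9.64, 6.57 and 4.26 CPM, against 12.6, 7.10, 8.29, 19.97 and 8.81 CPM in wild-type saline lungs. Groups overlapped in both genotypes, and replicate 4 was the highest library both of knockout-labelled HDM lungs and of wild-type saline lungs. Slfn1 rose by 0.81 ± 0.28 in knockout-labelled lungs (adjusted p = 0.0224, edgeR; exact permutation p = 0.0238). Without replicate 4 of the knockout-labelled HDM lungs the value was 0.55 (adjusted p = 0.105, edgeR), and without replicate 3 of the knockout-labelled saline lungs it was 0.75 (adjusted p = 0.0501, edgeR). In wild-type lungs it was -0.54 ± 0.29 (adjusted p = 0.167, edgeR), and the difference between the responses was 1.35 (adjusted p = 0.106, edgeR). Of 12 T cell markers, 5 rose with HDM in knockout-labelled lungs, where 26.2% of all genes rose. In wild-type lungs 2 of these T cell markers fell, where 16.5% of all genes fell. Their summed level was 171 to 278, 64.5 to 187, 96.6 to 194 and 63.2 to 475 CPM in knockout-labelled HDM, knockout-labelled saline, wild-type HDM and wild-type saline lungs, with none at 0 in any group. The highest sum, 475 CPM, belonged to replicate 4 of the wild-type saline lungs, where Slfn1, Slfn2 and Slfn8 were also highest in their group. B and plasma cell markers rose in 5 of 7 in knockout-labelled and 4 of 7 in wild-type lungs, against 26.2% and 13.6% of all genes. Their summed level was 819 to 1872 CPM in knockout-labelled HDM lungs and 59.2 to 189 CPM in knockout-labelled saline lungs, and 352 to 990 CPM in wild-type HDM lungs and 99.4 to 523 CPM in wild-type saline lungs, where replicate 4 again held the highest sum. NK cell markers fell with HDM in 4 of 7 in knockout-labelled and 5 of 7 in wild-type lungs, against 25.7% and 16.5% of all genes. The NK sums were 15.95 to 30.3 CPM in knockout-labelled HDM and 42.2 to 59.8 CPM in knockout-labelled saline lungs. They were 20.2 to 29.9 CPM in wild-type HDM and 38.0 to 61.9 CPM in wild-type saline lungs. No B or NK marker was at 0 in any group, and the part of lymphocytes in the levels of the family was not tested.

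Slfn3 and Slfn4 are the intermediate members. Slfn3 is known, mainly from rat, for gut epithelial differentiation, and Slfn4 is known as a gene of activated macrophages and of myeloid cells in inflamed mouse stomach. Slfn4 measured 24.4, 17.8, 23.3, 43.0 and 11.6 CPM in knockout-labelled HDM lungs, against 14.3, 11.98, 6.95, 14.5 and 11.03 CPM in knockout-labelled saline lungs. In wild-type HDM lungs it measured 18.04, 20.99, 15.9, 8.27 and 4.85 CPM, against 12.3, 10.6, 6.91, 5.84 and 6.36 CPM in wild-type saline lungs. Both pairs of groups overlapped, and the HDM groups were the more spread. Slfn4 rose by 1.03 ± 0.37 in knockout-labelled lungs (adjusted p = 0.0258, edgeR; exact permutation p = 0.0317). Without replicate 4 of the knockout-labelled HDM lungs that became 0.67 (adjusted p = 0.121, edgeR), and without replicate 3 of the knockout-labelled saline lungs 0.93 (adjusted p = 0.0580, edgeR). In wild-type lungs it was 0.70 ± 0.38 (adjusted p = 0.173, edgeR). Monocyte and macrophage markers (11 genes) rose in 9 of 11 and fell in 1 with HDM in knockout-labelled lungs, where 26.2% of all genes rose and 25.7% fell. In wild-type lungs 4 of these markers rose and 1 fell, where 13.6% of all genes rose and 16.5% fell. Their summed level was 675 to 1160 CPM in knockout-labelled HDM lungs, 375 to 470 CPM in knockout-labelled saline lungs, 382 to 648 CPM in wild-type HDM lungs and 348 to 505 CPM in wild-type saline lungs. Of 10 neutrophil markers 7 were tested, of which 2 rose in knockout-labelled and 1 in wild-type lungs, near the 26.2% and 13.6% of all genes. Between the labels 5 of the 7 were higher under HDM and 1 under saline, against 4.79% and 0.593% of all genes. The summed level of the 10 markers was 129 to 321, 154 to 225, 64.9 to 161 and 89.8 to 141 CPM in knockout-labelled HDM, knockout-labelled saline, wild-type HDM and wild-type saline lungs. No marker of either list was at 0, and their part in the Slfn4 result was not tested. Slfn3 and Slfn4 also share sequence with relatives, at 7.97% and 8.37% of 50-base words of their transcripts, so their counts are the less certain for it.

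Slfn3 averaged 7.41 ± 0.50 CPM in knockout-labelled HDM lungs and 5.35 ± 0.70 CPM in knockout-labelled saline lungs (SD, n = 5 each). Those groups did not overlap, and Slfn3 rose by 0.47 ± 0.15 (adjusted p = 0.0139, edgeR; exact permutation p = 0.00794). In wild-type lungs it averaged 7.07 ± 1.71 CPM with HDM and 5.804 ± 0.87 CPM with saline, a change of 0.28 (adjusted p = 0.173, edgeR).

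The long members are Slfn5, Slfn8, Slfn9 and Slfn14. Slfn5 did not pass the test in either genotype. It measured 249.1, 232, 277, 291 and 230 CPM in knockout-labelled HDM lungs, against 310, 260, 287, 303 and 298 CPM in knockout-labelled saline lungs. Wild-type HDM lungs held 281, 258, 259, 216 and 298 CPM, against 310, 263, 308, 251 and 303 CPM in wild-type saline lungs. Groups overlapped in both genotypes, with the HDM means below the saline means. The change was -0.19 ± 0.09 in knockout-labelled lungs (adjusted p = 0.1, edgeR; exact permutation p = 0.0556) and -0.13 in wild-type lungs (adjusted p = 0.329, edgeR). Its promoter holds the interferon motif that Slfn8 and Slfn9 also hold.

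Slfn9 rose with HDM in both genotypes. It measured 35.1, 31.9, 34.2, 51.2 and 34.3 CPM in knockout-labelled HDM lungs, against 11.97, 7.42, 8.45, 12.7 and 8.34 CPM in knockout-labelled saline lungs. Wild-type HDM lungs held 11.9, 20.9, 15.9, 10.9 and 9.06 CPM, against 8.69, 6.63, 6.91, 8.10 and 5.28 CPM in wild-type saline lungs. Neither pair of groups overlapped, and the lowest knockout-labelled HDM library lay above every library of the other 3 groups. Slfn9 rose by 1.93 ± 0.21 in knockout-labelled lungs (adjusted p = 8.02e-07, edgeR; exact permutation p = 0.00794) and by 0.94 ± 0.22 in wild-type lungs (adjusted p = 0.00283, edgeR; exact permutation p = 0.00794). For comparison, 11.6% of all genes had non-overlapping groups in wild-type lungs (5.93% higher and 5.64% lower). The difference between the responses was 0.99 ± 0.30 (adjusted p = 0.108, edgeR). The monocyte and macrophage markers given above rose in 9 of 11 in knockout-labelled and 4 of 11 in wild-type lungs, against 26.2% and 13.6% of all genes. Their part in the Slfn9 result was not tested.

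Slfn8 showed another pattern, with its low level in the knockout-labelled saline lungs. It measured 17.1, 15.01, 15.1, 27.3 and 16.5 CPM in knockout-labelled HDM lungs, against 7.80, 4.98, 4.62, 7.43 and 5.47 CPM in knockout-labelled saline lungs. In wild-type HDM lungs it measured 26.1, 29.9, 23.7, 24.5 and 18.9 CPM, against 26.2, 18.8, 21.96, 43.1 and 15.3 CPM in wild-type saline lungs. The knockout-labelled groups did not overlap, whereas the wild-type groups did. Slfn8 rose by 1.58 ± 0.25 in knockout-labelled lungs (adjusted p = 3.49e-05, edgeR, and exact permutation p = 0.00794). The knockout-labelled saline libraries behind that rise also chose the gene, so these p-values are no independent test of it. In wild-type lungs the change was -0.03 ± 0.24 (adjusted p = 0.941, edgeR). The difference between the responses was 1.61 ± 0.34, given as a description because it equals the label difference under HDM (-0.43) less the label difference under saline (-2.05), the values that chose the gene.

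Reads of Slfn8, Slfn9 and the pseudogene Slfn10-ps cannot always be told apart. Of the 50-base words in the longest annotated transcript, 15.4% of Slfn8 were shared with Slfn9 or Slfn10-ps, 11.2% of Slfn9 with its relatives and 19.7% of Slfn10-ps. The deposited counts of Slfn8 were not whole numbers in 19 of 20 libraries and those of Slfn9 in 20 of 20 (tolerance 0.005), as happens when reads are divided between genes. This was not particular to them: counts were not whole for Slfn2, Slfn4, Slfn5 and Slfn10-ps in 20 of 20 libraries, for Slfn3 in 19 and for Slfn1 in 2. Because of the shared words, Slfn8, Slfn9 and Slfn10-ps were also summed. The sum averaged 73.6 ± 16.4 CPM in knockout-labelled HDM lungs, 21.0 ± 4.55 CPM in knockout-labelled saline lungs, 46.4 ± 9.72 CPM in wild-type HDM lungs and 36.0 ± 13.3 CPM in wild-type saline lungs (SD, n = 5 each). It rose with HDM by 1.81 in knockout-labelled lungs (adjusted p = 2.92e-06, edgeR) and was 0.37 in wild-type lungs (adjusted p = 0.216, edgeR). Slfn8, chosen in part by its knockout-labelled saline libraries, belongs to that sum, so the p-value of the rise is no independent test either. The share of the sum assigned to Slfn8 separated the labels: 22.7 to 26.8% in knockout-labelled HDM lungs and 24.8 to 31.1% in knockout-labelled saline lungs, against 45.6 to 58.4% in wild-type HDM lungs and 66.0 to 75.3% in wild-type saline lungs. This share is a description of counts the authors' program divided among the genes. Slfn8 was chosen by its difference between the labels, so the separation of the share by label is no independent result.

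**Figure D3:**
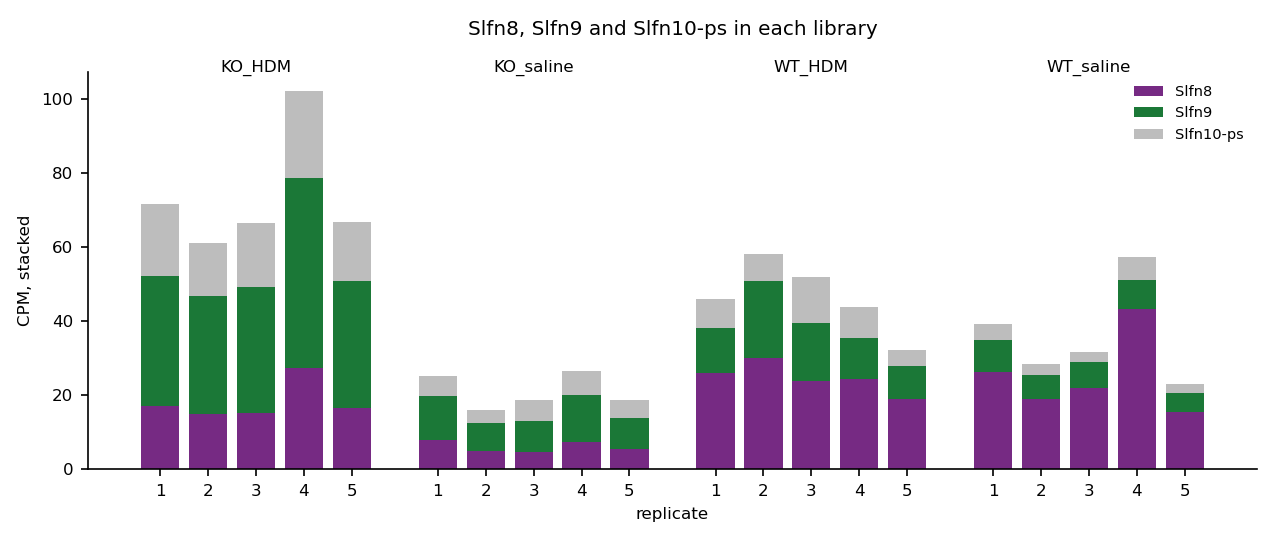
Stacked CPM of Slfn8, Slfn9 and Slfn10-ps in each of the 20 libraries, 1 bar a library, grouped as KO_HDM, KO_saline, WT_HDM and WT_saline. Slfn8 makes up 22.7 to 31.1% of each knockout-labelled bar and 45.6 to 75.3% of each wild-type bar, and the tallest bar is replicate 4 of the knockout-labelled HDM lungs at 102 CPM.

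Slfn14 was counted at a low level. It measured 2.241, 1.998, 2.19, 2.04 and 0.862 CPM in knockout-labelled HDM lungs, against 4.50, 6.72, 2.244, 4.39 and 5.01 CPM in knockout-labelled saline lungs. In wild-type HDM lungs it measured 0, 0.512, 0.0777, 0.207 and 0.446 CPM, against 0.0635, 0.725, 0.479, 0.552 and 0.330 CPM in wild-type saline lungs. Raw counts were 16 to 45 and 51 to 143 in the knockout-labelled HDM and saline libraries, against 0 to 9 and 1 to 14 in the wild-type ones. Its counts were whole in all 20 libraries and no 50-base word of its transcript was found in another gene. The knockout-labelled groups did not overlap, but by a margin of 2.241 CPM in the highest HDM library against 2.244 CPM in the lowest saline library. Replicate 1 of the wild-type HDM lungs had no count, and a count of 0 allows up to 3 counts, 0.185 CPM there. Slfn14 fell by 1.29 ± 0.44 on the log2 scale in knockout-labelled lungs (adjusted p = 0.0185, edgeR, and exact permutation p = 0.00794). Without replicate 2 of the knockout-labelled saline lungs it fell by 1.07 (adjusted p = 0.0687, edgeR). The knockout-labelled saline libraries behind that fall also chose the gene, so these p-values are no independent test of it. In wild-type lungs the change was -0.75 ± 0.59 (adjusted p = 0.354, edgeR).

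Red-cell genes moved with Slfn14. All 10 markers of the erythroid list were higher in knockout-labelled lungs under HDM and under saline, against 4.79% and 0.593% of all genes. With HDM 10 of 10 fell in knockout-labelled and 9 of 10 in wild-type lungs, against 25.7% and 16.5% of all genes. Their summed level was 2864 to 4905 CPM in knockout-labelled HDM lungs and 9480 to 19700 CPM in knockout-labelled saline lungs, against 1230 to 2006 CPM in wild-type HDM lungs and 2509 to 6063 CPM in wild-type saline lungs, with no marker at 0. Per 10000 CPM of these markers, Slfn14 was 5.28 ± 1.74 in knockout-labelled HDM lungs and 3.59 ± 0.991 in knockout-labelled saline lungs, against 1.45 ± 1.21 in wild-type HDM lungs and 1.45 ± 1.03 in wild-type saline lungs (SD, n = 5 each). The lowest of the knockout-labelled HDM ratios, 2.90, was below the highest of the wild-type HDM ratios, 2.93. Under saline the lowest knockout-labelled ratio, 2.07, was likewise below the highest wild-type ratio, 2.60, so the labels overlapped under both treatments. Of 10 platelet and megakaryocyte markers 8 fell and 1 rose with HDM in knockout-labelled lungs, where 25.7% of all genes fell and 26.2% rose. In wild-type lungs 8 fell and 2 rose, where 16.5% of all genes fell and 13.6% rose. Between the labels 1 was higher and 1 lower under HDM, against 4.79% and 1.88% of all genes. The part of red cells in the Slfn14 difference was not tested.

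**Figure D4:**
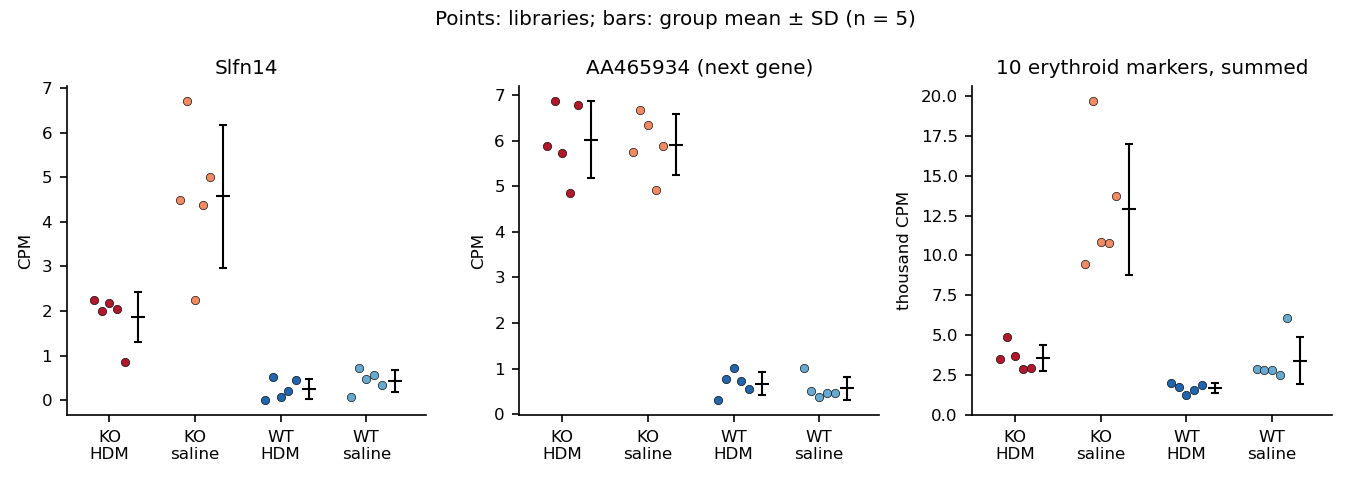
CPM of Slfn14, of the neighbouring noncoding gene AA465934 and of 10 erythroid markers summed (the last axis in units of 1000 CPM), 1 panel each, with points for libraries and bars for the mean and SD of 5. The knockout-labelled saline lungs are highest in Slfn14 (2.24 to 6.72 CPM) and in the markers (9480 to 19700 CPM), while AA465934 averages 6.02 CPM in knockout-labelled HDM and 5.91 CPM in knockout-labelled saline lungs.

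Between the genotype labels the members are described without a test, since 2 of them chose the family. Under saline, 2 of 8 members had groups that did not overlap: Slfn8, at 6.06 ± 1.46 CPM in knockout-labelled and 25.1 ± 10.9 CPM in wild-type lungs (log2 fold change -2.05), and Slfn14, at 4.57 ± 1.60 and 0.430 ± 0.249 CPM in knockout-labelled and wild-type lungs (3.37). Of all genes, 3.06% did not overlap in that comparison (1.91% higher and 1.14% lower). Under HDM, Slfn1 (1.05), Slfn9 (1.45) and Slfn14 (2.83) did not overlap, and all were higher in knockout-labelled lungs, against 7.01% of all genes (4.8% higher and 2.21% lower). Slfn8 overlapped under HDM, with 18.2 ± 5.19 CPM in knockout-labelled and 24.6 ± 3.99 CPM in wild-type lungs (-0.43). The remaining differences lay between -0.31 and 0.49 under saline and between -0.04 and 0.82 under HDM. The summed Slfn8, Slfn9 and Slfn10-ps level differed by -0.77 under saline and by 0.67 under HDM.

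The cluster and its surroundings were then read gene by gene. Alox15 lies before the cluster on the same chromosome, with 428 RefSeq genes between them, of which 177 were tested, and 1251 genes of chromosome 11 were tested in all. Inside the cluster the tested non-members were Slfn10-ps and the long noncoding RNA AI662270, and both rose with HDM in both genotypes. Slfn10-ps rose by 1.80 in knockout-labelled and 1.10 in wild-type lungs, and AI662270 by 2.34 in knockout-labelled and 1.84 in wild-type lungs (edgeR adjusted p at most 0.00352).

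Of the 20 tested genes flanking the cluster, 2 were called between the labels under saline and 7 under HDM, where 0.908% (0.593% higher and 0.315% lower) and 6.67% (4.79% higher and 1.88% lower) of all genes were called. The next tested gene after Slfn14, the noncoding AA465934, averaged 6.02 ± 0.834 CPM in knockout-labelled HDM lungs and 5.91 ± 0.667 CPM in knockout-labelled saline lungs, against 0.671 ± 0.262 CPM in wild-type HDM lungs and 0.567 ± 0.256 CPM in wild-type saline lungs. It did not overlap between labels under either treatment, and its HDM changes were 0.03 in knockout-labelled and 0.24 in wild-type lungs, neither of which passed the test. On the other side, Unc45b, which encodes a myosin chaperone of striated muscle, averaged 11.5 ± 3.29 CPM in knockout-labelled HDM lungs and 18.3 ± 1.62 CPM in knockout-labelled saline lungs, against 35.9 ± 5.03 and 38.1 ± 4.32 CPM in wild-type HDM and saline lungs. The nearest tested genes on both sides of the cluster thus ran in opposite directions between the labels. Others called under HDM were Rffl (0.29), Ccl11 (-1.13), Rad51d (-0.36), 1700020L24Rik (-1.01) and Mmp28 (-1.50), the last a matrix metalloproteinase.

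**Figure D5:**
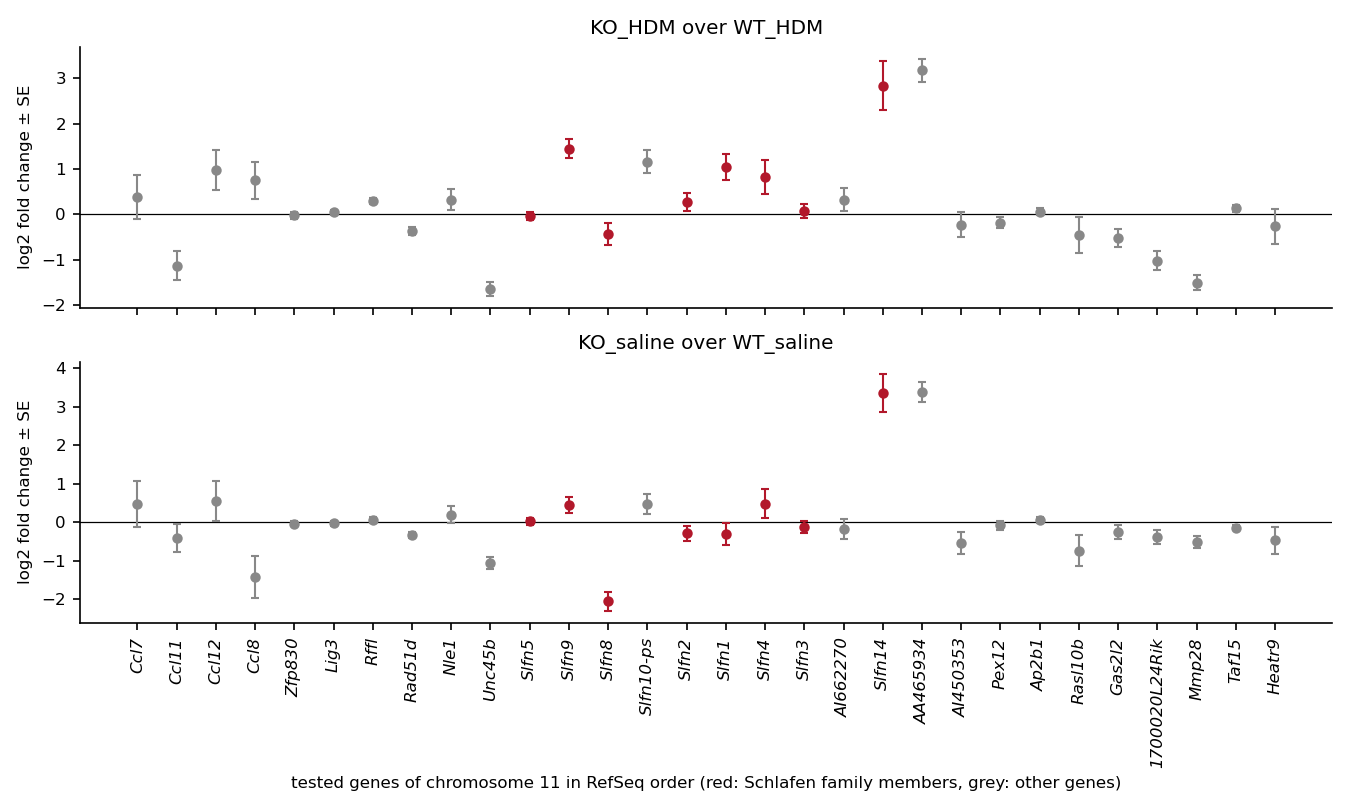
Log2 fold change between knockout-labelled and wild-type lungs, under HDM and under saline, for the 30 tested genes of the Schlafen cluster and its flanks in chromosome order. Slfn14 (2.83 and 3.37) and AA465934 (3.17 and 3.39) stand next to each other, and Slfn8 (-0.43 and -2.05) and Unc45b (-1.64 and -1.06) lie below 0.

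The interferon response genes were described as a list of 26, all tested, which includes antiviral effectors such as Oas1a and Mx1 and chemokines such as Cxcl10. With HDM, 14 rose and 2 fell in knockout-labelled lungs (median 0.34, against 0.016 for all genes), where 26.2% of all genes rose and 25.7% fell. In wild-type lungs 2 rose and 2 fell (median -0.03, against -0.020), where 13.6% of all genes rose and 16.5% fell. Oas1a, which makes the signal that activates an antiviral ribonuclease, rose in both, by 1.13 in knockout-labelled lungs (19.1 CPM with HDM against 8.73 CPM with saline) and by 0.71 in wild-type lungs (15.8 CPM with HDM against 9.65 CPM with saline). In knockout-labelled lungs Cxcl10 (2.89), Zbp1 (1.55) and the guanylate-binding protein gene Gbp3 (1.03) also rose. In wild-type lungs Mx1 rose (0.77), and Ifit2 (-0.71) and Cmpk2 (-0.47) fell. The test of the difference called 1 of 26, Gbp3 (1.07, adjusted p = 0.0277, edgeR), against 1.24% of all genes.

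Between the labels, 9 of the 26 were called higher under HDM and 2 under saline, against 4.79% and 0.593% of all genes. Xaf1 averaged 63.7 ± 7.92 CPM in knockout-labelled HDM lungs, against 14.8 ± 2.17 CPM in wild-type HDM lungs, and 66.0 ± 4.83 CPM in knockout-labelled saline lungs, against 18.2 ± 3.47 CPM in wild-type saline lungs. Rsad2, an antiviral enzyme, was also higher, by 1.52 under HDM and 2.03 under saline. Both label differences were thus present without HDM. The chromosomal positions of Xaf1 and Rsad2 are not given here. The part of interferon or of line of origin in these differences was not tested. Of 12 interferon receptors and signalling genes, 7 rose and 1 fell with HDM in knockout-labelled lungs, where 26.2% of all genes rose and 25.7% fell. In wild-type lungs 4 rose and 1 fell, where 13.6% of all genes rose and 16.5% fell. Jak2 rose by 0.68 in knockout-labelled and 0.34 in wild-type lungs, and the gamma receptor subunit Ifngr2 by 0.59 in knockout-labelled and 0.68 in wild-type lungs.

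Genes whose profile over the 20 libraries lay closest to a member were named by the root mean square difference of centred log2 CPM, a description with no test. For Slfn2 these were Myo1g (0.137), Irf5 (0.139) and Actr3 (0.145), and for Slfn1 Fyb (0.289), Il2rb (0.314) and Ms4a6b (0.32). For Slfn4 they were Csf3r (0.334), Lilra6 (0.424) and Clec4e (0.431), and for Slfn9 Slfn10-ps (0.301), Itgam (0.336) and Clec12a (0.346). Slfn14 lay closest to Trim10 (0.642) and Slc4a1 (0.647), both of them on the erythroid list. Slfn5 lay closest to Pik3cb (0.0655), and Slfn3 to Nudcd1 (0.148). Slfn8 lay closest to Edaradd (0.434), Clec2i (0.466) and Adamts6 (0.474). For Slfn8 and Slfn14 the profiles include the label differences that chose the family. A gene with a like label difference comes out close to them, so their closest genes are no independent link.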

How the data were processed

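Lung RNA was extracted with Trizol, and oligo-dT beads and a dUTP strand-marking protocol were used for the libraries, per the labels' protocols, which also mention rRNA depletion. The counting program's strand setting is not given in the sources used here. The values are expected counts per gene that the authors deposited, made with RSEM 1.2.15 and Bowtie2 2.1.0 per the submitters' processing notes. Those notes name the human build hg38 for a table of mouse symbols, so the build used is not known here. RSEM divides reads that match several genes, which bears on the closely related Slfn8, Slfn9 and Slfn10-ps and on the other members whose counts were not whole numbers.

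Expected counts were rounded to whole numbers. Genes were filtered with filterByExpr by group, leaving 16193 of 24054. TMM scaling and edgeR 4.0.16 (robust quasi-likelihood F test, limma 3.58.1, R 4.3.3) fitted all 20 libraries with 1 mean a group and 16 residual degrees of freedom, and Benjamini-Hochberg adjustment ran over all genes tested. CPM used TMM-scaled library sizes. Single members were also tested with an exact two-sided permutation of mean log2 CPM (prior count 2), 5 against 5 libraries. Marker sums are summed CPM. Positions and promoters are from RefSeq (GRCm38.p6) and transcripts from GENCODE (GRCm38). The ribosomal repeat Rn45s took 1.21 to 6.08% of counts, with the highest mean in wild-type HDM lungs. DESeq2 1.42.0 was an alternative.

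The members and lists were chosen with earlier results of these data known. Named genes were the members, Alox15, the tested genes inside the cluster and 10 on each side, up to 4 genes per interferon list and comparison by smallest p, and the 3 closest profiles per member with a mean log2 CPM of at least 1. That rule took protein-coding genes inside the cluster, so Slfn10-ps and AI662270 were named after their values were seen. P-values measure the spread between these libraries, and a count covers counting error only. Some genes that these rules name are not reported here.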

Additional observations from a re-analysis of the deposited data

Results flagged for a closer look

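In 3 of 32 groups of 5 libraries (8 genes in 4 groups) a library stood far from the rest. The rule flags about 1 group in 20 by chance where groups are independent and normally spread. The 8 genes share the same libraries, and Slfn8 and Slfn9 share reads, so 3 of 32 cannot be set against that rate. Slfn8 was 27.3 CPM in replicate 4 of the knockout-labelled HDM lungs, where the nearest other library had 17.1 CPM. Slfn9 was 51.2 CPM in the same library, with the nearest at 35.1 CPM. Slfn14 was 0.862 CPM in replicate 5 of the knockout-labelled HDM lungs, with the nearest at 2.00 CPM. The difference between the HDM responses of Slfn8 in knockout-labelled and wild-type lungs was 1.61 on the log2 scale, and it rests on the genotype difference that chose the gene.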

How the results depend on the processing

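Across 31 settings, 714 tested values of single members were recomputed: 666 kept their direction and side of the threshold, 22 lost their call, 10 gained one and 16 changed sign. Of 482 genotype values, 480 moved by less than the spread between replicates and 2 by more, the summed Slfn8 values of -0.77 (saline) and 0.67 (HDM). In wild-type lungs the members called with HDM were 2, but 1 with the 10 compared libraries alone and 1 to 4 when 1 library was left out, where Slfn9 kept its call in every fit. Slfn2 lost its call without knockout-labelled HDM replicate 2 or 3, wild-type HDM replicate 1, 2, 3 or 4, or wild-type saline replicate 1, 2, 3 or 5, and without wild-type HDM replicate 5 Slfn3 and Slfn4 joined Slfn2 and Slfn9. In knockout-labelled lungs the 7 called became 5 to 8 when 1 library was left out. Slfn5 was called there, with -0.28 to -0.23, without knockout-labelled HDM replicate 4, wild-type HDM replicate 4 or wild-type saline replicate 1, 2 or 3. The difference between responses called 3 with DESeq2 (Slfn1, Slfn8 and Slfn9), 0 without the adipose-rich libraries (at least 50 CPM of Adipoq, chosen after seeing the data) and 0 to 2 when 1 library was left out, with 0 without knockout-labelled HDM replicate 4, knockout-labelled saline replicate 2, 3 or 5, or wild-type saline replicate 1. Slfn8 in wild-type lungs changed sign but was never called: 0.0122 without the low-count filter, 0.0110 with at least 1 CPM in 5 libraries, 0.0416 with limma voom, 0.11 without the adipose-rich libraries, 0.0165 without Rn45s, 0.37 summed, and -0.13 to 0.26 when 1 library was left out. The Slfn4 difference between responses ranged from -0.031 (without replicate 4 of the knockout-labelled HDM lungs) to 0.55 when 1 library was left out. The cause was not tested. Over all genes, DESeq2 called 608 rather than 200 genes for the difference between responses and 327 rather than 147 between labels under saline, of which 54.7% rather than 65.3% were higher; the 10 compared libraries alone called 2854 rather than 4866 genes in wild-type lungs. In wild-type lungs 45.2% of the calls with HDM were higher, against 54.8% without the low-count filter, 52.7% with at least 1 CPM in 5 libraries, 54.1% without Rn45s and 44.6 to 54.7% when 1 library was left out. Leaving out 1 library gave 79 to 260 genes for the difference between responses (79 without knockout-labelled HDM replicate 4) and 576 to 1396 rather than 1080 between labels under HDM.

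With the replicate number as a block, the calls were 2, 7 and 1 as without it, and Slfn8 in wild-type lungs was 0.053. The numbers were not taken to pair the samples, since no 2 groups had all 5 same-numbered correlations above 0.1. Of 30 such pairs 17 were above 0.1, from -0.457 to 0.506, with 4 of 5 above it between knockout-labelled and wild-type saline lungs and 4 of 5 between wild-type HDM and saline lungs. As a hint from the data and not the design, 9 of 20 libraries correlated best with their own number. The precision of Slfn14 is limited by its 0 to 14 counts in wild-type libraries.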
